A study of Saccharomyces cerevisiae with 8 samples.

Results

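The genes described here are those of ergosterol synthesis and its control in budding yeast (Saccharomyces cerevisiae), chosen by name: every gene whose symbol is ERG followed by digits (20 genes), plus 12 named genes of the same pathway. All 32 were among the 5449 genes measured, each by 1 probe set of its own, with no probe set whose name ends as those shared by several transcripts do. The groups were strains deleted for DOT1, SWI4 or ARD1 and a wild type (wt), with 2 arrays each from cultures that the labels call biological replicates. Cells of all 4 groups grew in liquid YPD, a rich medium, at 30 C and were collected in mid-log phase, at an OD600 (optical density) of 0.7. Dot1 is a histone methyltransferase, Swi4 binds DNA as part of the G1 transcription factor SBF, and the Ard1 protein is the catalytic part of the NatA complex, which acetylates the N termini of many proteins. The labels do not give the strain background, the mating type or how many clones of a deletion were used.

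Ergosterol is the main sterol of fungal membranes, as cholesterol is in animals. Its synthesis starts from acetyl-CoA, passes through mevalonate and farnesyl pyrophosphate, which other pathways also use, and reaches squalene, lanosterol and finally ergosterol in steps that need oxygen, haem and electron donors. In yeast the reductase Hmg1 or Hmg2 makes mevalonate at the main control point, and the zinc cluster factors Upc2 and Ecm22 activate many of the genes. Surplus sterol is stored as esters, and sterol is taken up from outside chiefly when oxygen is lacking.

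Levels are log2 intensities after the authors' RMA normalization. Changes are compared within a gene, because the probes of different genes respond differently, and a rank of brightness among genes is a property of the probes and not of transcript abundance. A change is a mutant mean minus a wt mean (or minus another mutant's mean) on that log2 scale, from limma with 1 fit over the 8 arrays, and its error is the standard error (SE) with n = 2 arrays per group. A gene is called, and said to have risen or fallen, when its limma p, adjusted by Benjamini-Hochberg over all 5449 genes, was under 0.05.

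The targeted genes were checked first. DOT1 measured 4.49 and 4.29 in dot1, against 7.49 and 7.92 in wt. SWI4 measured 4.21 and 4.22 in swi4, against 5.14 and 5.11 in wt, so its difference was small beside those of the other deleted genes. The lowest mean of any gene over the 8 arrays was 4.02, which left SWI4 little room to measure lower. ARD1 measured 5.57 and 5.22 in ard1, against 10.41 and 10.83 in wt. The 2 wt arrays stood apart by a median of 0.14 over all genes, but by 0.04 over the sterol genes, of which 19 of 32 were higher on wt replicate 2. The probe sets of 24 sterol genes were in the brightest 25% of the array's genes, and those of HES1 and UPC2 in the dimmest 25%.

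Most sterol genes lay slightly below wt in every mutant, and the calls were all downward. In ard1, 9 of the 32 genes fell (28.1%), where 12.2% of all genes fell. In swi4, 4 fell (12.5%), where 7.01% of all genes fell, and in dot1 1 fell (3.12%), where 1.34% of all genes fell. After median centring the counts were 6 lower in ard1, 1 higher (SUT1) and 0 lower in swi4, and 0 in dot1. After centring 3 sterol genes in dot1 and 8 in swi4 had an unadjusted p under 0.05. The share of all genes with such a p after centring was not counted. Over all genes 18.7% in ard1, 13.3% in swi4 and 4.28% in dot1 were called after centring, in either direction. In each mutant limma called 0 of the 32 genes higher, where 1.12% of all genes rose in dot1, 5.16% in swi4 and 6.26% in ard1. At an unadjusted p under 0.05, 7 sterol genes were lower and 0 higher in dot1, 12 lower and 1 higher in swi4, and 19 lower and 0 higher in ard1, where 22.5%, 30.2% and 32.3% of all genes had such a p in either direction. Genes that mark the mating types were read as well: of the 4 alpha cell markers, 4 fell in ard1 (median −0.62), against 1 in swi4 and 0 in dot1 (0 also at an unadjusted p under 0.05). Of the 7 a cell markers limma called 0 in any mutant (0, 2 and 2 at an unadjusted p under 0.05 for dot1, swi4 and ard1). Their part in the sterol gene changes was not tested.

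The changes were small. For dot1, swi4 and ard1 the median change of the sterol genes was −0.19, −0.20 and −0.26, and that of all genes was −0.068, −0.096 and −0.065. No sterol gene changed by 2-fold or more in any mutant against wt (0 of 32 in each), and the share of all genes that did was not counted. The lower and upper quartiles of change over all genes were −0.236 and 0.082 in dot1 and −0.299 and 0.102 in swi4. In ard1 they were −0.28 and 0.136. The sign was negative for 31, 29 and 29 of the 32 genes, and after centring each array on its median, which brought the medians of all genes to 0.006, 0.004 and 0.009, it was negative for 28, 22 and 27. Both mutant arrays lay below both wt arrays for 22 sterol genes of dot1 (68.8%), 26 of swi4 (81.2%) and 25 of ard1 (78.1%), and over all genes these shares were 26.8%, 37.1% and 35.6%. The 3 comparisons share the same 2 wt arrays, so their directions are not independent of each other.

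**Figure D1:**
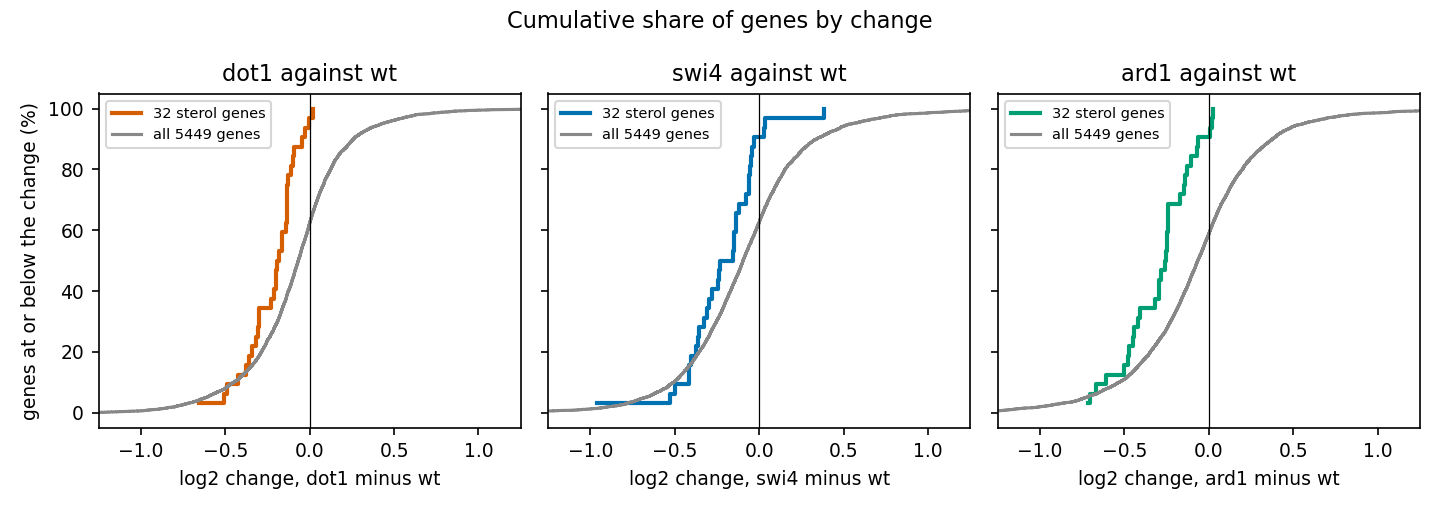
Cumulative share of genes (vertical axis, percent) by log2 change against wt (horizontal axis) for the 32 sterol genes (coloured steps) and all 5449 genes (grey) in dot1, swi4 and ard1. The coloured steps run to the left of the grey ones over most of the range, with medians of −0.19, −0.20 and −0.26, and the curves cross at the low end.

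**Figure D2:**
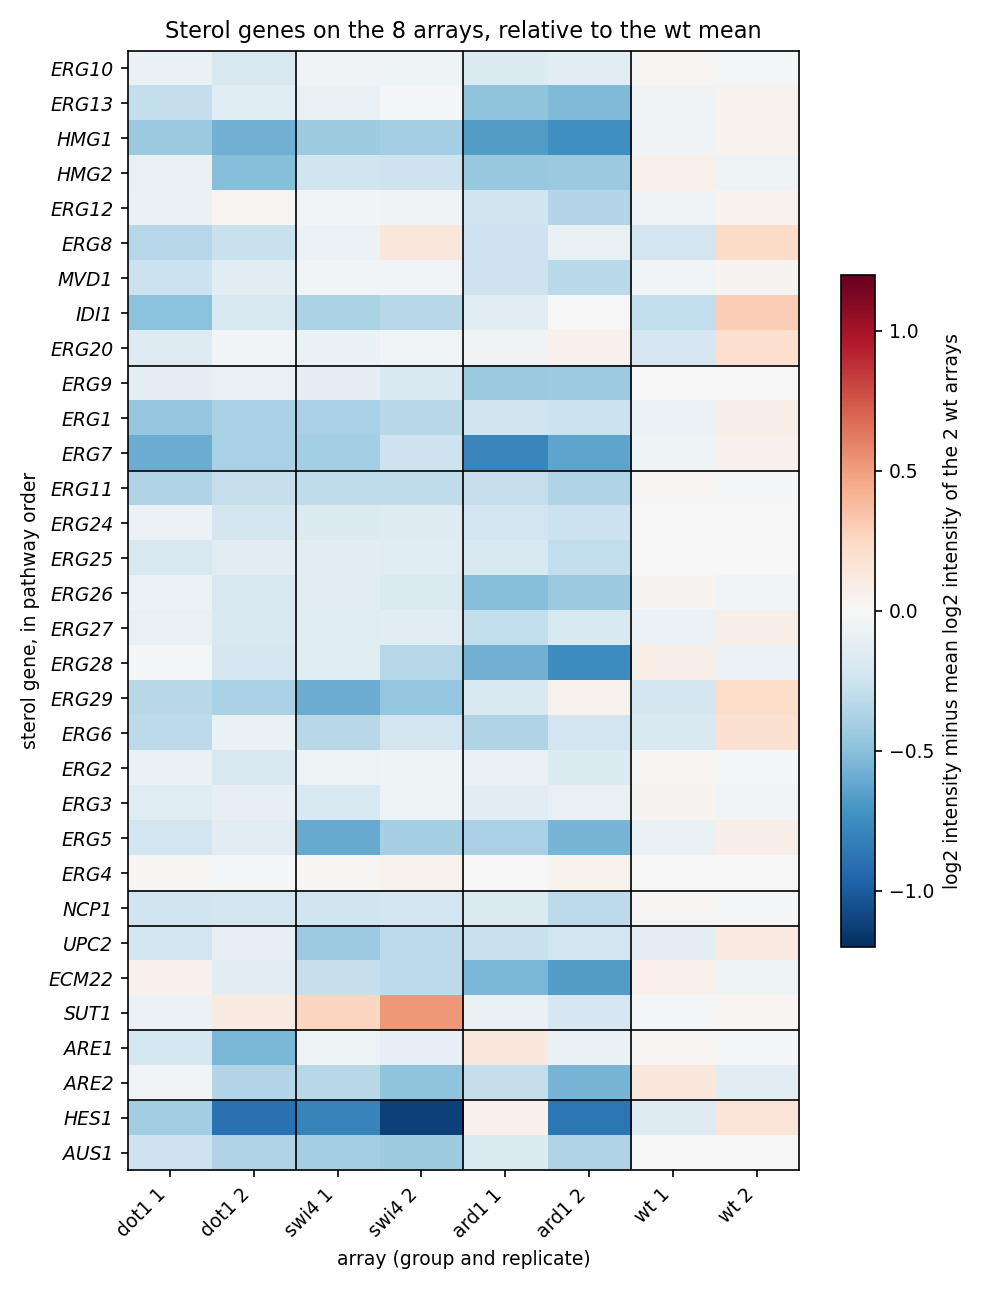
Log2 intensity of each sterol gene (rows, in pathway order, lines between roles) on each array (columns, by group and replicate) minus the mean of the 2 wt arrays, as colour from blue (below wt) to red (above). Blue dominates the 6 mutant columns, HMG1 is blue in all 6, ERG4 is pale throughout, and SUT1 is red on both swi4 arrays.

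The early steps, from acetyl-CoA to farnesyl pyrophosphate, comprise 9 genes, of which 1 fell in dot1, 1 in swi4 and 2 in ard1. HMG1, which encodes an HMG-CoA reductase, was the only sterol gene that fell in all 3 mutants. It measured 11.82 and 11.68 in dot1, 11.83 and 11.85 in swi4, 11.59 and 11.52 in ard1, against 12.21 and 12.30 in wt. All 6 mutant arrays lay below both wt arrays, and the ard1 arrays lay below the other mutants as well. No difference in HMG1 between mutants was called (limma, adjusted p = 0.203 for ard1 against dot1 and 0.0827 for swi4 against ard1). HMG1 was 1.42-fold lower in dot1 (−0.51 ± 0.09, adjusted p = 0.0441), 1.34-fold lower in swi4 (−0.42 ± 0.09, adjusted p = 0.0344) and 1.63-fold lower in ard1 (−0.70 ± 0.09, adjusted p = 0.00507).

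The second reductase gene, HMG2, did not pass in any mutant. It measured 12.64 and 12.22 in dot1, 12.49 and 12.48 in swi4, 12.28 and 12.28 in ard1, against 12.79 and 12.66 in wt. The 6 mutant arrays again lay below both wt arrays, but the dot1 arrays were far apart. Its changes were −0.30, −0.24 and −0.45 (SE 0.14, adjusted p = 0.275, 0.296 and 0.0742 in limma).

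ERG13 encodes the HMG-CoA synthase that supplies the reductases, and it fell in ard1 alone among the 3 comparisons with wt. It measured 13.12 and 13.27 in dot1, 13.32 and 13.40 in swi4, 12.93 and 12.88 in ard1, against 13.37 and 13.45 in wt. The ard1 arrays stood below all others, while the swi4 arrays overlapped wt. ERG13 was 1.42-fold lower in ard1 than in wt (−0.51 ± 0.09, adjusted p = 0.0149). The difference between mutants was called too, since ERG13 was 1.37-fold higher in swi4 than in ard1 (0.45 ± 0.09, adjusted p = 0.0241).

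The other 6 early genes were called in no mutant. They are ERG10 (acetoacetyl-CoA thiolase), ERG12 (mevalonate kinase), ERG8 (phosphomevalonate kinase), MVD1 (mevalonate pyrophosphate decarboxylase), IDI1 (isopentenyl pyrophosphate isomerase) and ERG20 (farnesyl pyrophosphate synthase). Their changes lay between −0.35 and 0.03. ERG12 and MVD1 came nearest to a call, at −0.30 ± 0.09 and −0.28 ± 0.09 in ard1 (adjusted p = 0.0710 and 0.0698). ERG20 had changes of −0.09, −0.06 and 0.00 (SE 0.14) against wt in the 3 mutants. IDI1, ERG8 and ERG20 had wt arrays far apart, at 11.35 and 11.93 for IDI1, 10.52 and 10.97 for ERG8 and 12.34 and 12.74 for ERG20, with wt replicate 2 the higher each time.

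The 3 enzymes that turn farnesyl pyrophosphate into lanosterol had negative changes in every mutant, with calls for 0, 1 and 2 of them in the dot1, swi4 and ard1 strains (2, 2 and 3 at an unadjusted p under 0.05). ERG7, the gene of lanosterol synthase, had the largest called fall of any sterol gene. It measured 10.72 and 10.93 in dot1, 10.90 and 11.06 in swi4, 10.52 and 10.68 in ard1, against 11.26 and 11.37 in wt. All mutant arrays lay below both wt arrays. The fall in ard1 was 1.64-fold (−0.71 ± 0.12, adjusted p = 0.0104), and the changes in dot1 and swi4 did not pass (−0.49 and −0.33, adjusted p = 0.0777 and 0.117).

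ERG9, the gene of squalene synthase, had tight replicates. It measured 12.73 and 12.74 in dot1, 12.72 and 12.65 in swi4, 12.38 and 12.40 in ard1, against 12.83 and 12.84 in wt. The ard1 arrays stood clear of the other 6. ERG9 was 1.36-fold lower in ard1 than in wt (−0.44 ± 0.08, adjusted p = 0.0142) and 1.27-fold lower in ard1 than in dot1 (−0.34 ± 0.08, adjusted p = 0.0372).

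ERG1, the gene of squalene epoxidase and the target of terbinafine, had another order. It measured 13.47 and 13.54 in dot1, 13.54 and 13.60 in swi4, 13.69 and 13.67 in ard1, against 13.87 and 14.00 in wt. The mutant nearest to wt was ard1, and the dot1 and swi4 arrays touched. ERG1 fell in swi4 (1.28-fold, −0.36 ± 0.09, adjusted p = 0.0485), and it did not pass in dot1 (−0.43 ± 0.09, adjusted p = 0.0595) or ard1 (−0.25 ± 0.09, adjusted p = 0.106). No difference in ERG1 between mutants was called.

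**Figure D3:**
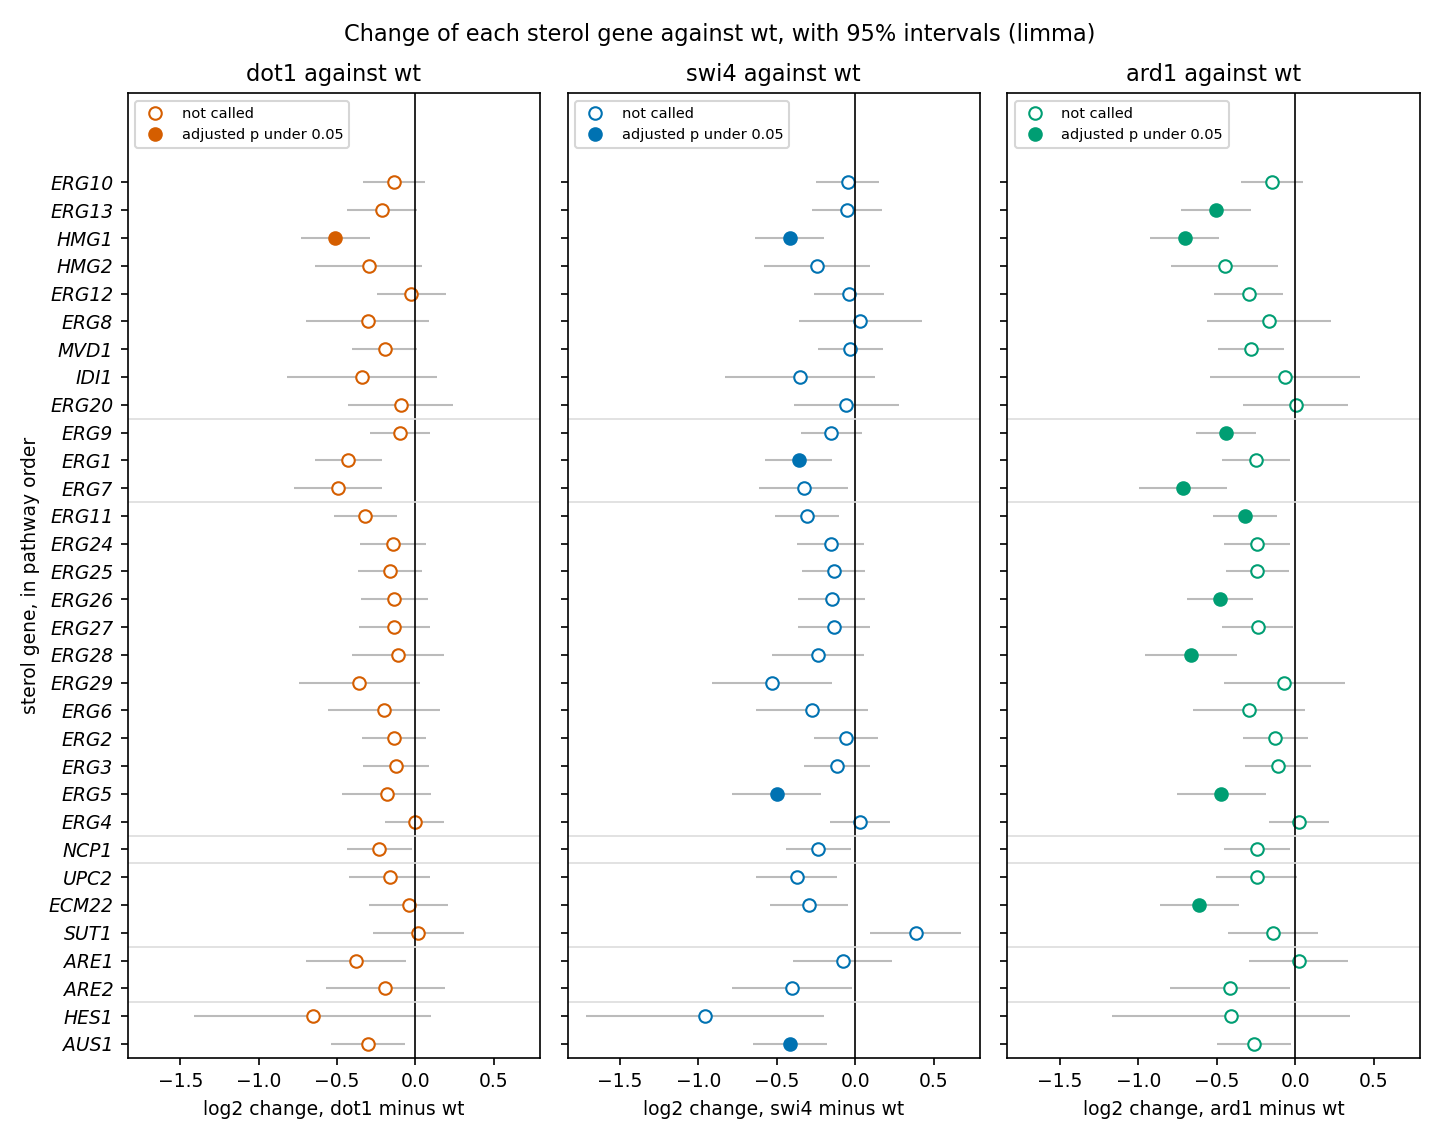
Log2 change of each sterol gene (rows, in pathway order) against wt in dot1, swi4 and ard1, with 95% intervals from limma (horizontal bars). Filled points passed an adjusted p of 0.05 (1, 4 and 9 genes), open points did not, and HES1 has the widest intervals.

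From lanosterol to ergosterol there are 12 genes, of which 0 fell in dot1 by limma (1 at an unadjusted p under 0.05), 1 in swi4 and 4 in ard1. Their median change was −0.14, −0.15 and −0.24. ERG11, the lanosterol demethylase that azole drugs inhibit, is the first of them. It measured 13.48 and 13.56 in dot1, 13.53 and 13.53 in swi4, 13.56 and 13.48 in ard1, against 13.85 and 13.83 in wt. The 3 mutants overlapped each other and all lay below wt. The changes, −0.32, −0.31 and −0.32 (SE 0.09) for dot1, swi4 and ard1, had adjusted p of 0.0947, 0.0612 and 0.0435, so the gene was called only in ard1, and no difference between mutants was called.

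ERG26 and ERG28 act together in removing the methyl groups of lanosterol, ERG26 as the dehydrogenase and ERG28 as the scaffold that holds the complex. ERG26 measured 12.22 and 12.10 in dot1, 12.17 and 12.12 in swi4, 11.79 and 11.85 in ard1, against 12.33 and 12.26 in wt. ERG28 measured 12.49 and 12.31 in dot1, 12.37 and 12.17 in swi4, 11.93 and 11.75 in ard1, against 12.58 and 12.43 in wt. For both genes the ard1 arrays lay below all 6 others. ERG26 was 1.39-fold lower in ard1 than in wt (−0.48 ± 0.09, adjusted p = 0.0150) and 1.27-fold lower than in dot1 (−0.34 ± 0.09, adjusted p = 0.0487). ERG28 was 1.59-fold lower in ard1 than in wt (−0.67 ± 0.12, adjusted p = 0.0149) and 1.47-fold lower than in dot1 (−0.56 ± 0.12, adjusted p = 0.0318).

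The partners ERG25, the methyl oxidase, and ERG27, the keto reductase, were called in no mutant, at −0.24 ± 0.08 (ERG25) and −0.24 ± 0.10 (ERG27) in ard1 (adjusted p = 0.0981 and 0.135). ERG29, whose product also takes part in ergosterol synthesis, had differences of −0.36, −0.53 and −0.07 (SE 0.16) for dot1, swi4 and ard1 and did not pass, with wt arrays at 8.81 and 9.26.

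ERG5 encodes the desaturase of the sterol side chain, a cytochrome P450 like Erg11. It measured 12.50 and 12.61 in dot1, 12.14 and 12.34 in swi4, 12.35 and 12.18 in ard1, against 12.66 and 12.82 in wt. Each mutant lay below wt, and swi4 and ard1 overlapped. ERG5 fell 1.42-fold in swi4 (−0.50 ± 0.12, adjusted p = 0.0424) and 1.39-fold in ard1 (−0.47 ± 0.12, adjusted p = 0.0371), and the change in dot1 was −0.18 ± 0.12 (adjusted p = 0.418).

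The late genes ERG24 (a reductase), ERG6 (the side-chain methyltransferase), ERG2 (an isomerase) and ERG3 (a desaturase) had changes between −0.30 and −0.06 in the 3 mutants, none of them called. ERG4, which encodes the reductase of the last step, had the narrowest range of group means of the 32 genes, 0.04. It measured 13.27 and 13.24 in dot1, 13.28 and 13.31 in swi4, 13.27 and 13.30 in ard1, against 13.25 and 13.27 in wt. Its changes were 0.00, 0.03 and 0.02 (SE 0.08), and the 95% interval ran from −0.194 to 0.185 in dot1, from −0.159 to 0.22 in swi4 and from −0.165 to 0.214 in ard1. NCP1, the reductase that passes electrons to both P450 enzymes and to squalene epoxidase, did not pass, at −0.23, −0.23 and −0.24 (SE 0.09; adjusted p = 0.186, 0.126 and 0.104).

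**Figure D4:**
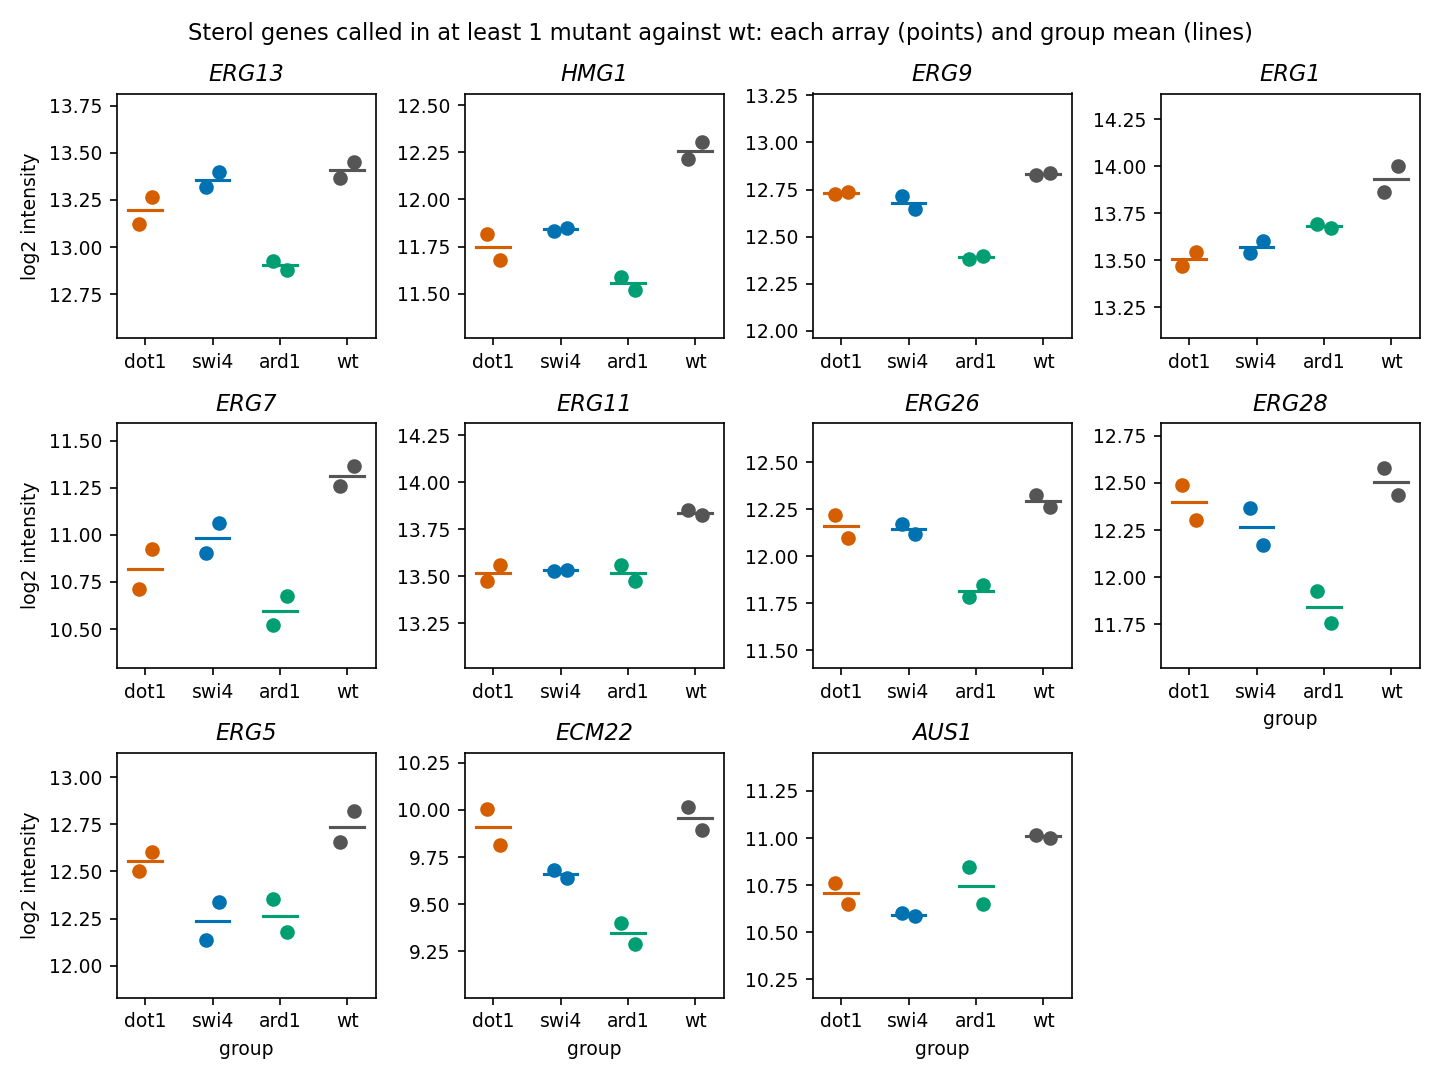
Log2 intensity (vertical axis, each panel spanning the same range) of the 11 sterol genes called in at least 1 mutant against wt, with 1 point per array and a line at each group mean. The ard1 points are the lowest for ERG13, HMG1, ERG9, ERG7, ERG26, ERG28 and ECM22, and the wt points are above both arrays of the called mutant in every panel.

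Of the 3 transcription regulators, 1 fell, in ard1. ECM22 measured 10.00 and 9.82 in dot1, 9.68 and 9.64 in swi4, 9.40 and 9.29 in ard1, against 10.02 and 9.89 in wt. The dot1 and wt arrays overlapped and the ard1 arrays were lowest. ECM22 was 1.53-fold lower in ard1 than in wt (−0.61 ± 0.10, adjusted p = 0.0116) and 1.48-fold lower than in dot1 (−0.57 ± 0.10, adjusted p = 0.0192).

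UPC2, the related activator, passed in no comparison. It measured 7.18 and 7.30 in dot1, 6.96 and 7.09 in swi4, 7.14 and 7.17 in ard1, against 7.29 and 7.51 in wt. Its changes were −0.16, −0.37 and −0.25 (SE 0.11, adjusted p = 0.433, 0.0699 and 0.172).

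SUT1, a zinc cluster gene that promotes sterol uptake, was the only sterol gene above wt at an unadjusted p under 0.05 in any mutant. It measured 8.05 and 8.23 in dot1, 8.38 and 8.64 in swi4, 8.04 and 7.93 in ard1, against 8.10 and 8.15 in wt. Both swi4 arrays lay above the other 6. SUT1 was 1.44-fold higher in swi4 than in ard1 (0.53 ± 0.12, adjusted p = 0.0327). Against wt the change in swi4 was 0.39 ± 0.12 (adjusted p = 0.0868), and it passed after median centring (0.48, adjusted p = 0.0465) and after quantile normalization (0.48, adjusted p = 0.0433). It also passed in limma with the replicate number as a block (adjusted p = 0.0437). It did not pass with only the 2 groups compared (limma, adjusted p = 0.173) or an intensity trend (0.128). Nor did it pass without the dimmest 25% of genes (0.0724) or with the mean of all probe sets (0.0865), where the values of SUT1 itself stay the same. It was not called in any fit that left out 1 of the 8 arrays. In those fits the change was 0.25 without swi4 replicate 2 and 0.52 without swi4 replicate 1.

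Among the storage genes, the sterol acyltransferase genes ARE1 and ARE2 were called in no mutant. ARE1 measured 11.39 and 11.06 in dot1, 11.54 and 11.50 in swi4, 11.73 and 11.52 in ard1, against 11.62 and 11.59 in wt. The dot1 arrays were the lowest and far apart (−0.38 ± 0.13, adjusted p = 0.162). ARE2 had differences of −0.19, −0.41 and −0.42 (SE 0.16) for dot1, swi4 and ard1 (adjusted p = 0.546, 0.143 and 0.123).

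AUS1 encodes an ABC transporter of sterol uptake. It measured 10.76 and 10.65 in dot1, 10.60 and 10.59 in swi4, 10.84 and 10.65 in ard1, against 11.02 and 11.00 in wt. All mutant arrays lay below wt, and swi4 was lowest. AUS1 fell 1.33-fold in swi4 (−0.42 ± 0.10, adjusted p = 0.0425). This call was lost after median centring, after quantile normalization and with only the 2 groups compared. It held without the dimmest 25% of genes, with an intensity trend and with a replicate block. Without any 1 of the wt and swi4 arrays it was lost too, and the change there ran from −0.425 to −0.408. HES1, an oxysterol-binding protein homologue gene, had replicates that lay far apart. It measured 5.56 and 5.08 in dot1, 5.18 and 4.86 in swi4, 6.03 and 5.10 in ard1, against 5.82 and 6.13 in wt. Its changes of −0.66, −0.96 and −0.41 had an SE of 0.32 and did not pass (adjusted p = 0.280, 0.0977 and 0.433).

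The sterol genes were also compared between mutants. In ard1 against dot1 the 4 genes ERG9, ERG26, ERG28 and ECM22 were lower (12.5% of 32), where 8.44% of all genes were lower, and limma called 0 higher, where 5.67% of all genes were higher. At an unadjusted p under 0.05, 7 sterol genes were lower and 1 higher, where 31.5% of all genes had such a p. In swi4 against ard1 the 2 genes ERG13 and SUT1 were higher (6.25% of 32), where 9.07% of all genes were higher, and limma called 0 lower, where 6.2% of all genes were lower. At an unadjusted p under 0.05, 10 were higher and 1 lower, where 32.2% of all genes had such a p. In swi4 against dot1 limma called 0 sterol genes, where 1.01% of all genes were called, and 3 had an unadjusted p under 0.05, where 11.7% of all genes did. The medians over the sterol genes were −0.085, 0.08 and 0.00 in these comparisons, and those over all genes were 0.01, −0.03 and −0.01. No sterol gene call between mutants held in every fit without 1 array of the groups compared, and calls over all genes were fewer too. In those fits the median over the sterol genes ran from −0.1 to −0.049 in ard1 against dot1. In swi4 against ard1 it ran from 0.061 to 0.094.

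Of the 9 falls in ard1, HMG1 passed when either wt array or ard1 replicate 1 was left out and gave an adjusted p of 0.0524 without ard1 replicate 2. The 6 genes ECM22, ERG13, ERG26, ERG28, ERG7 and ERG9 passed without either wt array and did not pass without either ard1 array. ERG5 in ard1 passed only without wt replicate 1, and ERG11 did not pass when any of the 4 arrays was left out. In ard1, 1 sterol gene was called without ard1 replicate 1 and 0 without ard1 replicate 2, where 5.23% and 3.76% of all genes were called and 16 and 8 sterol genes had an unadjusted p under 0.05. In swi4 the counts were 6 without wt replicate 1, where 26.3% of all genes were called, and 0 without wt replicate 2, swi4 replicate 1 or swi4 replicate 2, where 4.73%, 0.679% and 0.991% were. Leaving out a dot1 array, which enters only through the shared spread, gave 1 in swi4 (12.1% of all genes), and leaving out an ard1 array gave 0 (5.69%). In dot1 they were 5 without wt replicate 1, where 14.8% of all genes were called, and 0 without any other array, where 0.0734% to 0.22% were. The share of all genes with an unadjusted p under 0.05 was not counted in the fits without 1 array. The sterol gene counts at that p therefore have no matching share beside them there. After median centring HMG1 no longer passed in dot1 and all 4 falls in swi4 no longer passed, while 6 of the 9 in ard1 did: ECM22, ERG13, ERG28, ERG7, ERG9 and HMG1.

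Other genes around sterols were counted by list, and the lists were chosen with earlier results of these data known. To set beside each list, 1.34%, 7.01% and 12.2% of all genes fell in dot1, swi4 and ard1. In the same order 1.12%, 5.16% and 6.26% of all genes rose. Of 23 measured genes of sterol transport, storage and hydrolysis, 2 fell in dot1, 7 in ard1 and 6 in swi4, where 1 rose. YEH1, a sterol ester hydrolase gene, fell 1.95-fold in dot1 (−0.96 ± 0.12), 1.90-fold in swi4 (−0.93 ± 0.12) and 2.27-fold (−1.18 ± 0.12) in ard1. ATF2, whose product acetylates sterols and alcohols, fell in dot1 (−1.22 ± 0.15), swi4 (−1.06 ± 0.15) and ard1 (−1.46 ± 0.15). The sterol-binding PRY genes split in swi4, where PRY2 fell (−1.49 ± 0.09) and PRY1 rose (0.77 ± 0.15). For dot1, swi4 and ard1 the median change of the list was −0.01, −0.18 and −0.18. The fall of YEH1 in ard1, that of ATF2 in ard1 and that of PRY2 in swi4 passed with any 1 of the 4 arrays concerned left out, and the other calls in this list did not.

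Of 16 genes of haem synthesis, oxygen regulation and electron donation, 2 fell in dot1, 4 in ard1 and 6 in swi4, and no call was upward. The median change of that list was −0.12, −0.25 and −0.29. HEM13, the oxygen-dependent step of haem synthesis, fell in dot1 (−0.62 ± 0.11), swi4 (−0.54 ± 0.11) and ard1 (−0.80 ± 0.11). CYB5, cytochrome b5, an electron donor to sterol and lipid desaturation, fell too (−0.70, −0.80 and −0.69, SE 0.12). The fall of HEM13 in ard1 passed with any 1 of the 8 arrays left out, and no other call in this list did. The calls of both named genes held after median centring.

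Of 11 genes of control at the endoplasmic reticulum, 1 fell in dot1, 1 fell and 1 rose in swi4, and 1 fell and 1 rose in ard1. SSM4, the ubiquitin ligase Doa10 that degrades squalene epoxidase, fell in dot1 (−0.55 ± 0.09) and swi4 (−0.48 ± 0.09). HRD1, the ligase that degrades Hmg2, fell in ard1 (−0.54 ± 0.13), where CUE1, which anchors a ubiquitin-conjugating enzyme, rose (0.42 ± 0.12). DAP1, a haem protein that aids Erg11, rose in swi4 (0.53 ± 0.12). Of 16 other users of isoprenoids, 0 fell in dot1 (3 at an unadjusted p under 0.05), 1 in swi4 and 2 in ard1, namely SRT1, a cis-prenyltransferase gene (−0.76 ± 0.10 in ard1), and COX10, a haem farnesyltransferase gene (−0.55 ± 0.12 in swi4 and −0.66 ± 0.12 in ard1). Each of these calls was lost without at least 1 of the 4 arrays it compares, and after median centring those of SSM4 and that of COX10 in swi4 were lost.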

How the data were processed

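Total RNA from 8 yeast cultures was labelled with biotin and hybridised to 1-colour Affymetrix arrays, per the labels' protocols. The authors deposited linear intensities, 1 for each probe set on each array; the submitters' processing notes name RMA (version not given in the sources used here). Intensities ran from 15.2 to 35540, so log2 was taken before every test. Signal over background is unknown, and the number of arrays limits the precision. Of 5814 probe sets, 5498 had 1 gene symbol, 0 several and 316 none. The brightest probe set stood for each of 5449 genes, all found by gene ID in the R64 gene table. No low-value filter was applied.

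Differences were fitted with limma 3.58.1 in R 4.3.3 (lmFit, eBayes), with 4 group means, 4 residual degrees of freedom and 2.73 from the prior. The smallest exact permutation p for 2 against 2 arrays is 0.333. Every member was named, and of each other list at most the 4 called genes with the largest changes. The members and lists were chosen with earlier results of these data known. The fit was tested on simulated data. Alternatives were median centring, quantile normalization, fits of 2 groups, a filter on dim genes, mean probe sets, an intensity trend, a replicate block and leaving out each array.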

Additional observations from a re-analysis of the deposited data

How the results depend on the processing

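Counts of sterol genes called in dot1, swi4 and ard1 against wt were 1, 4 and 9, and the percentages in this paragraph are shares of all genes called in the same fit. In dot1 they became 0 (4.28%) after median centring, 2 (3.95%) after quantile normalization, 0 (0%) with only the 2 groups compared, 2 (5.29%) without the dimmest 25% of genes and 5 (6.39%) with an intensity trend in the prior. In swi4 they became 1 (SUT1, higher; 13.3%) after centring and 0 (3.23%) with only the 2 groups compared. In ard1 they became 6 (18.7%) after centring, 2 (7.43%) with only the 2 groups compared and 15 (19.6%) with the trend. For ard1 against dot1 the count of 4 became 2 (17.8%) after centring and 1 (11.6%) with only the 2 groups compared. For swi4 against ard1 the count of 2 became 12 (10 higher and 2 lower, 40.9%) with only the 2 groups compared, 4 (18.3%) without the dimmest 25% of genes and 7 (17.9%) with the trend. The causes of these shifts were not tested. The mean of all probe sets changed no count, but each sterol gene has 1 probe set, so its own values were the same in that fit. Using the deposited values as log2 was not run because they are linear. Leaving out 1 array moved the counts of calls widely in most comparisons, both for the sterol genes and for all genes. Where that left 1 array in a group, it was assumed to vary like the other groups. Without 1 array, the median change of the sterol genes ran from −0.23 to −0.156 in dot1 and from −0.205 to −0.155 in swi4. In ard1 it ran from −0.315 to −0.243. Median centring moved the median change of the sterol genes to −0.11, −0.10 and −0.18 in dot1, swi4 and ard1. No called change turned direction under any alternative. Over all genes, those called in dot1, swi4 and ard1 numbered 134, 663 and 1006, and 0, 176 and 405 with only the 2 groups compared.

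The labels number the replicates 1 and 2 in each group without saying what a number shares. Deviations of same-numbered arrays correlated at 0.351 to 0.754 over genes between groups. With the replicate number as a block the counts against wt were 3 in dot1, where 14.6% of all genes were called, 12 in swi4 (11 lower and 1 higher), where 25.6% were, and 11 in ard1, where 27.8% were. The counts were 0 in swi4 against dot1 (2.81% of all genes), 6 in ard1 against dot1 (29%) and 8 in swi4 against ard1 (28.4%). The 1 higher in swi4 against wt was SUT1 (adjusted p = 0.0437).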

Other observations

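Genes of other lipids, in a list chosen with earlier results of these data known, also had mostly negative changes. All 21 listed genes of fatty acid, phospholipid and sphingolipid synthesis had negative changes in dot1 and in ard1, and 20 of 21 did in swi4, with medians of −0.25, −0.39 and −0.22 in that order. Of them 2 fell in dot1, 5 in swi4 and 9 in ard1, where 1.34%, 7.01% and 12.2% of all genes fell. PSD1, the mitochondrial phosphatidylserine decarboxylase gene, fell in dot1 (−0.68 ± 0.10), swi4 (−0.66 ± 0.10) and ard1 (−0.99 ± 0.10), and CHO1, the phosphatidylserine synthase gene, fell in dot1 (−0.65 ± 0.10), swi4 (−0.58 ± 0.10) and ard1 (−0.47 ± 0.10). In ard1 the fatty acid elongase gene ELO1 fell 1.83-fold (−0.87 ± 0.09) and the fatty acid synthase gene FAS2 1.58-fold (−0.66 ± 0.09). ELO1 also differed between mutants, at 0.72 ± 0.09 in swi4 against ard1 (limma, adjusted p = 0.00465). Of these calls against wt, those of PSD1 and ELO1 in ard1 stayed past the threshold without any 1 of the wt and ard1 arrays. After median centring the calls of CHO1 did not pass in any of the 3 mutants.

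Upc2 is also known as an activator of cell wall mannoprotein genes used without oxygen. Of the 6 DAN and TIR genes, 1 fell in dot1, 1 in swi4 and 2 in ard1, where 1.34%, 7.01% and 12.2% of all genes fell. TIR1 fell in dot1 (−0.76 ± 0.12), swi4 (−1.70 ± 0.12) and ard1 (−1.26 ± 0.12), and TIR3 fell in ard1 (−0.46 ± 0.11), a call lost after median centring. The falls of TIR1 in swi4 and ard1 passed with any 1 of the arrays concerned left out.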
